A study of Mus musculus with 12 samples.

Results

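Solute carrier genes encode membrane transporters, and 130 of them were followed in MC3T3-E1 cells, a mouse osteoblastic line from calvaria, 3 hours into treatment with tumor necrosis factor alpha (TNFa), bone morphogenetic protein 4 (BMP4) or both. The members were taken by symbol: a name built from Slc, a family number, the letter a and a member number, with a mean log2 expression of at least 6 over the 12 libraries. The deposited table has 25124 entries, of which 340 carried such a symbol. Of these, 60 were at 0 in every library, 147 had other values with a mean below the level, and 133 reached it. Slc1a3, Slc26a2 and Slc7a11 were left out by name, which gave the 130 members. Just inside the level stood Slc22a15 (mean 6.06), Slc5a2 (6.25) and Slc46a1 (6.31), and just outside it Slc25a14 (5.998), Slc26a6 (5.97) and Slc18a2 (5.91). In 128 members the mean of every group was at least 6. Slc2a6 was the only member with an untreated mean below 6, so its membership rests on its TNFa libraries.

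The groups were TNFa at 10 ng/mL, BMP4 at 10 ng/mL, TNFa and BMP4 together at those doses, and untreated cells, with 3 libraries of polyadenylated RNA in each. The titles of the 3 TNFa libraries also carry the tag p65, which the other titles lack and the labels do not explain. Their treatment entry names TNFa alone, and whether the tag marks a further difference from the other groups cannot be told, which bears on every comparison that includes these libraries. All 4 groups were first held in medium with 2.5% serum for 30 min. The protocol placed TNFa 30 min ahead of BMP4, with the BMP4 step lasting 3 h, whereas the sample descriptions give 3 h for each treatment. Cultures of 1 cell line were compared, and nothing in the labels says whether the 3 libraries of a group came from separate cultures, so p-values measure the spread between these libraries. Batch 1 held replicate 1 of each group and batch 2 held replicates 2 and 3. Library totals lay between 13737314 and 15511104 tags, apart from 20579257 in TNFa+BMP4 replicate 2. Batch 2 differed from batch 1 for 7541 of 11765 tested genes and for 85 of the 130 members, so batch was a term in the main fit of every comparison.

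Markers of the labelled cell type were present in part. Mean log2 levels over all libraries were 17.3 for Col1a1, 17.5 for Col1a2, 13.9 for Prrx1, 10.3 for Runx2, 9.18 for Twist1 and 5.29 for Sp7. Alpl, on the same list of markers, had only 0.35, and Bglap and Ibsp, genes of mature osteoblasts, had -0.03 and -1.23. Ptprc, Adgre1, Cdh5, Kdr, Adipoq, Fabp4, Plin1, Epcam, Krt18, Myod1, Myog and Actc1, which mark leukocytes, endothelium, fat, epithelium and muscle, were at or below 0. Csf1r (1.67), Cd68 (4.49), Lyz2 (4.71), Pecam1 (4.96) and Cdh1 (5.21) were detected, and their part in the results was not tested.

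Solute carriers move amino acids, sugars, metal ions, phosphate, nucleotides and vitamins across the plasma membrane and the membranes of organelles. Several are known for roles in bone: glucose enters osteoblasts largely through Slc2a1 (GLUT1), phosphate for mineral enters through the sodium-coupled carriers Slc20a1 and Slc20a2 (Pit1 and Pit2), and collagen synthesis draws on amino acid uptake. TNFa acts through NF-kB and stress kinases and is known to hold back osteoblast maturation, while BMP4 acts through SMAD proteins and promotes it.

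Levels between members were compared per kilobase of transcript, as mean log2 expression minus log2 length in kb. On this scale the mitochondrial phosphate carrier Slc25a3 stood first of the 130 with 12.5, ahead of Slc25a4 (12.1) and Slc25a5 (11.0), the exchangers of ADP and ATP in the inner mitochondrial membrane. Slc39a7 (10.7), a zinc exporter of the endoplasmic reticulum and Golgi, led the metal carriers. Slc3a2 (10.5), the heavy chain that carries the amino acid exchanger Slc7a5 to the cell surface, led the amino acid carriers, and Slc7a5 itself had 9.88. The sugar carriers were lower, with a median of 5.84 per kb over 7 members, against 7.21 over 18 amino acid carriers, 7.68 over 23 metal carriers and 7.50 over 3 phosphate carriers.

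TNFa alone changed 28 of the 130 members (17 higher and 11 lower, 21.5%), where limma called 15.5% of all 11765 tested genes at an adjusted p below 0.05. Higher calls made up 13.1% of members and 9.16% of all tested genes, and lower calls 8.46% and 6.32%. BMP4 alone changed 12 members (5 higher and 7 lower, 9.23%, with 12.2% of all tested genes called). Higher calls made up 3.85% of members and 6.75% of all tested genes, and lower calls 5.38% and 5.47%. Both factors together changed 44 members against untreated cells (25 higher and 19 lower, 33.8%, with 31.2% of all tested genes called). Here 19.2% of members and 16.8% of all tested genes were higher, and 14.6% and 14.4% were lower. Adding BMP4 to TNFa changed 15 (7 higher and 8 lower, 11.5%, with 11.7% of all tested genes), with 5.38% of members and 5.47% of all tested genes higher, and 6.15% and 6.2% lower. Adding TNFa to BMP4 changed 28 (17 higher and 11 lower, 21.5%, with 16.2% of all tested genes), with 13.1% of members and 8.78% of all tested genes higher, and 8.46% and 7.41% lower. Shares of members and of all tested genes were not tested against each other. The median log2 change of the 130 members was 0.01 with TNFa, -0.01 with BMP4 and -0.003 with both, against -0.009, 0 and 0 over all tested genes. Every called member moved the same way in both batches in all 5 comparisons. The calls were made on these same libraries, so this agreement is no independent support for them. With TNFa, 20 of the 28 called changes were larger in batch 1, as were 10 of 12 with BMP4 and 38 of 44 with both. A batch 1 difference sets 1 library against 1, whereas a batch 2 difference averages 2 libraries per group. The share of all tested genes with a larger change in batch 1 was not counted. Whether members respond more strongly in batch 1 was not tested. The 5 comparisons hold 127 called changes in all, of which batch 2 alone kept 102.

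**Figure D1:**
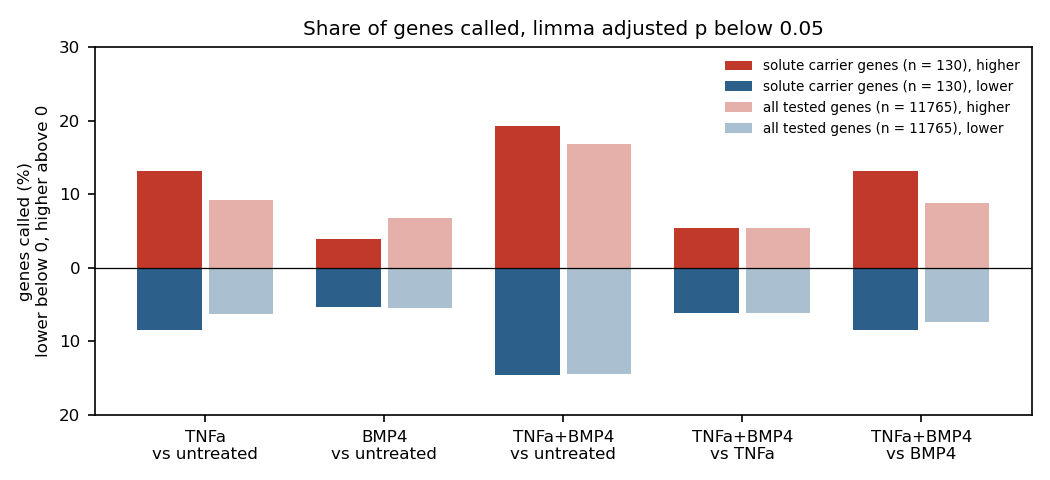
Percentage of genes called by limma at an adjusted p below 0.05, higher above 0 and lower below 0, for the 130 solute carrier genes (dark bars) and all 11765 tested genes (pale bars) in 5 comparisons. With TNFa, alone or added to BMP4, the dark bars reach farther than the pale ones in both directions, a difference that was not tested, and the tallest bars belong to both factors against untreated cells, where 33.8% of the solute carrier genes and 31.2% of all tested genes were called.

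In all, 54 members were called in at least 1 of these 5 comparisons and 76 in none. That is 41.5% of members, with 39.6% of all tested genes called in at least 1, and the shares were not tested against each other. None of the 17 that TNFa alone raised was called with BMP4 alone. BMP4 alone called only 9.23% of members and 12.2% of all tested genes, and this overlap was not tested. Slc25a27 and Slc27a3 were among the members lower with each factor alone. Slc6a6 and Slc6a8 were lower with TNFa and higher with BMP4. BMP4 alone raised Slc1a4, Slc25a32 and Slc39a14, and Slc19a2, Slc31a2 and Slc45a4 were among those it lowered, and none of these 6 was called with TNFa. A further 14 members were called for both factors together against untreated cells and for neither factor alone, among them Slc20a1, Slc5a3, Slc12a9 and Slc38a1. The share of all tested genes with this pattern was not counted. Both factors called 31.2% of all tested genes, where TNFa alone called 15.5% and BMP4 alone 12.2%. A missing call with 1 factor is not an absent change, and Slc20a1 lay just over the threshold with TNFa alone. By the authors' deposited test Slc20a1 was called with TNFa and not with both factors.

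**Figure D2:**
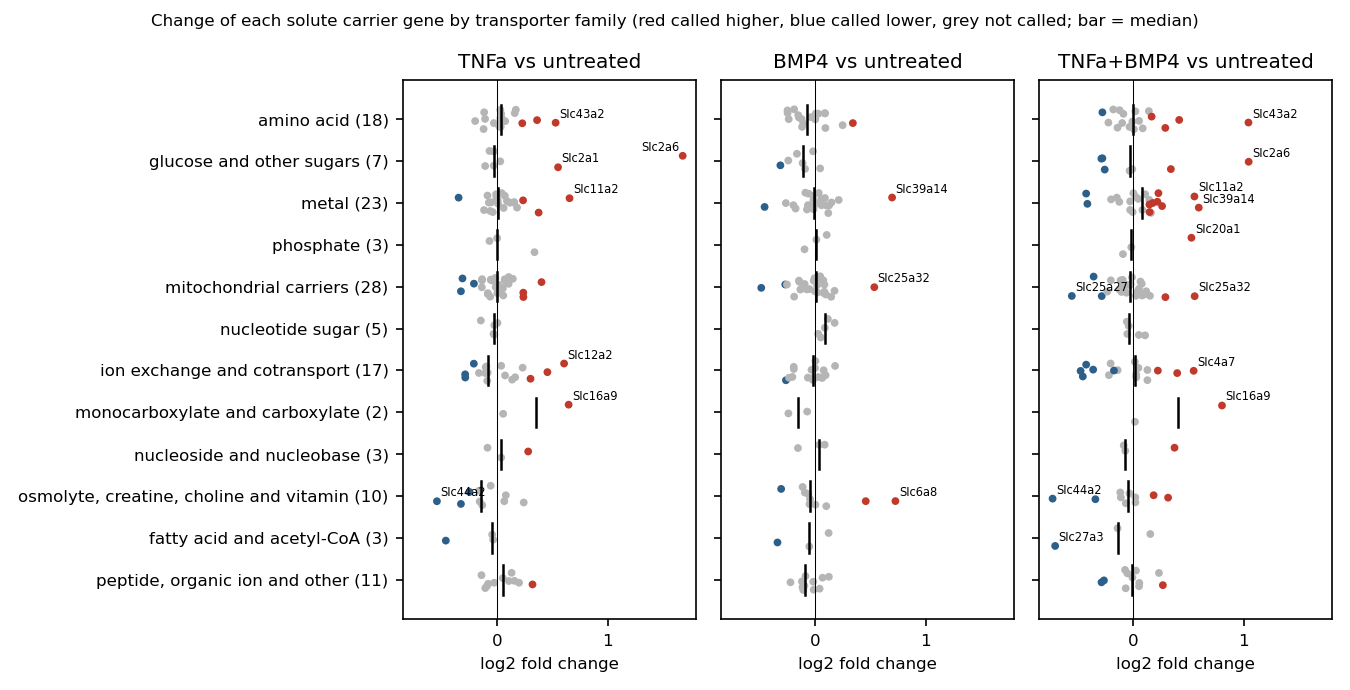
Log2 fold change of each solute carrier gene against untreated cells (horizontal axis) by transporter family (rows, number of genes in parentheses), for TNFa, BMP4 and both factors, with genes called higher in red, called lower in blue and not called in grey, and a bar at the family median. Slc2a6 lies farthest to the right under TNFa (1.67), and Slc44a2, at -0.54 with TNFa and -0.72 with both factors, farthest to the left in those panels.

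Among 7 glucose and other sugar carriers, TNFa raised 2 and lowered none, BMP4 raised none and lowered 1, and both factors together raised 2 and lowered 3. The count with both factors, 5 in the full fit, was 2 without untreated replicate 1, 3 without TNFa+BMP4 replicate 1 or 3 and 3 in batch 2 alone. The count with BMP4 was 0 without untreated replicate 3, and 2 without untreated replicate 1 and in batch 2 alone. Of all tested genes, 15.5% were called with TNFa, 12.2% with BMP4 and 31.2% with both. No family count, here or below, was tested against these shares. Slc2a6 (GLUT6, NM_172659, mm10 chr2:27021365-27027998, minus strand), a hexose carrier of intracellular membranes that is known for its induction in activated macrophages, had the largest rise of any member. Genes as low without TNFa that did not rise could not become members, so this rank follows in part from the rule. Slc2a6 itself reached the level only through its libraries given TNFa. Its log2 values were 7.52, 7.37 and 7.20 in TNFa libraries, 5.53, 5.61 and 5.88 in BMP4 libraries, 6.65, 6.78 and 6.76 in TNFa+BMP4 libraries, and 5.63, 5.70 and 5.73 in untreated libraries (replicates 1 to 3). Every TNFa library lay above every TNFa+BMP4 library, and these lay above all libraries without TNFa, while BMP4 and untreated libraries overlapped. The log2 fold change was 1.67 ± 0.10 with TNFa (SE, n = 3 per group, limma adjusted p = 3.29e-11), -0.01 ± 0.10 with BMP4 (adjusted p = 0.947) and 1.04 ± 0.10 with both (adjusted p = 4.5e-08). Adding BMP4 to TNFa changed it by -0.63 ± 0.10 (adjusted p = 0.000142). These calls were kept in all 12 fits that left out 1 library. The deposited log2 scale shrinks changes of low genes: across members with a mean log2 of 6 to 8, differences of deposited values followed the fold changes of the authors' deposited table with a slope of 0.55, against 0.92 above 10. For Slc2a6 the authors' deposited table lists a log2 fold change of 3.14 with TNFa and 2.21 with both factors.

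The 250 bases upstream of the Slc2a6 start are shown because no member rose more, from RefSeq (GRCm38.p6, chr2:27027999-27028248, minus strand, 5′ to 3′). The NF-kB consensus, which has 10 letters, was searched on both strands, and no capitals appear because it has no match in this window.
Slc2a6: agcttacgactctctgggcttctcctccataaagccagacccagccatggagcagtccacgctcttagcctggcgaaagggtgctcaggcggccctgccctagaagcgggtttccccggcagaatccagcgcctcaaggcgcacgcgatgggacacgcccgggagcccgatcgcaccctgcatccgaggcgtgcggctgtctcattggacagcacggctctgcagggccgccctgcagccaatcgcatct

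Slc2a1 (GLUT1, chr4:119108745-119137329), the main glucose carrier of the plasma membrane, had 9.57, 8.73 and 8.64 in TNFa libraries, 8.68, 7.91 and 7.98 in BMP4 libraries, 9.57, 8.41 and 8.33 in TNFa+BMP4 libraries and 8.71, 8.32 and 8.26 in untreated libraries. Batch 1 was higher throughout, and the groups overlapped across batches, but within each batch every TNFa library exceeded the untreated ones. The change was 0.55 ± 0.10 with TNFa (adjusted p = 0.00063), -0.24 ± 0.10 with BMP4 (adjusted p = 0.15, not called) and 0.34 ± 0.10 with both (adjusted p = 0.0163). The rise with both factors was 0.86 in batch 1 and 0.08 in batch 2. It fell to 0.17 without TNFa+BMP4 replicate 1 (adjusted p = 0.213) and to 0.17 without untreated replicate 1 (adjusted p = 0.217), so that call rests on the batch 1 libraries. Against BMP4 alone, both factors gave 0.58 ± 0.10 (adjusted p = 0.000378), with 0.89 in batch 1 and 0.43 in batch 2.

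The other sugar carriers were called lower or not called. Slc45a4 had 8.67, 8.63 and 8.67 in TNFa libraries, 8.25, 8.30 and 8.40 in BMP4 libraries, 8.27, 8.52 and 8.26 in TNFa+BMP4 libraries and 8.49, 8.64 and 8.74 in untreated libraries. All BMP4 libraries were below all untreated ones. It changed by -0.31 ± 0.08 with BMP4 (adjusted p = 0.0106, but 0.0568 without untreated replicate 3). Slc2a8, an intracellular hexose carrier, and Slc50a1, a sugar carrier of the SWEET family, were called lower only with both factors, with changes of -0.25 ± 0.08 (adjusted p = 0.0185) and -0.28 ± 0.09 (adjusted p = 0.0158). The Slc2a8 call was lost without TNFa+BMP4 replicate 1 or 2 (adjusted p = 0.064 and 0.0772) or untreated replicate 1 (0.108), and the Slc50a1 call without TNFa+BMP4 replicate 3 (0.063) or untreated replicate 1 (0.0841). Slc2a10 and Slc5a2 passed the test in no comparison, and Slc5a2 shares 25.8% of its exon bases with another gene.

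**Figure D3:**
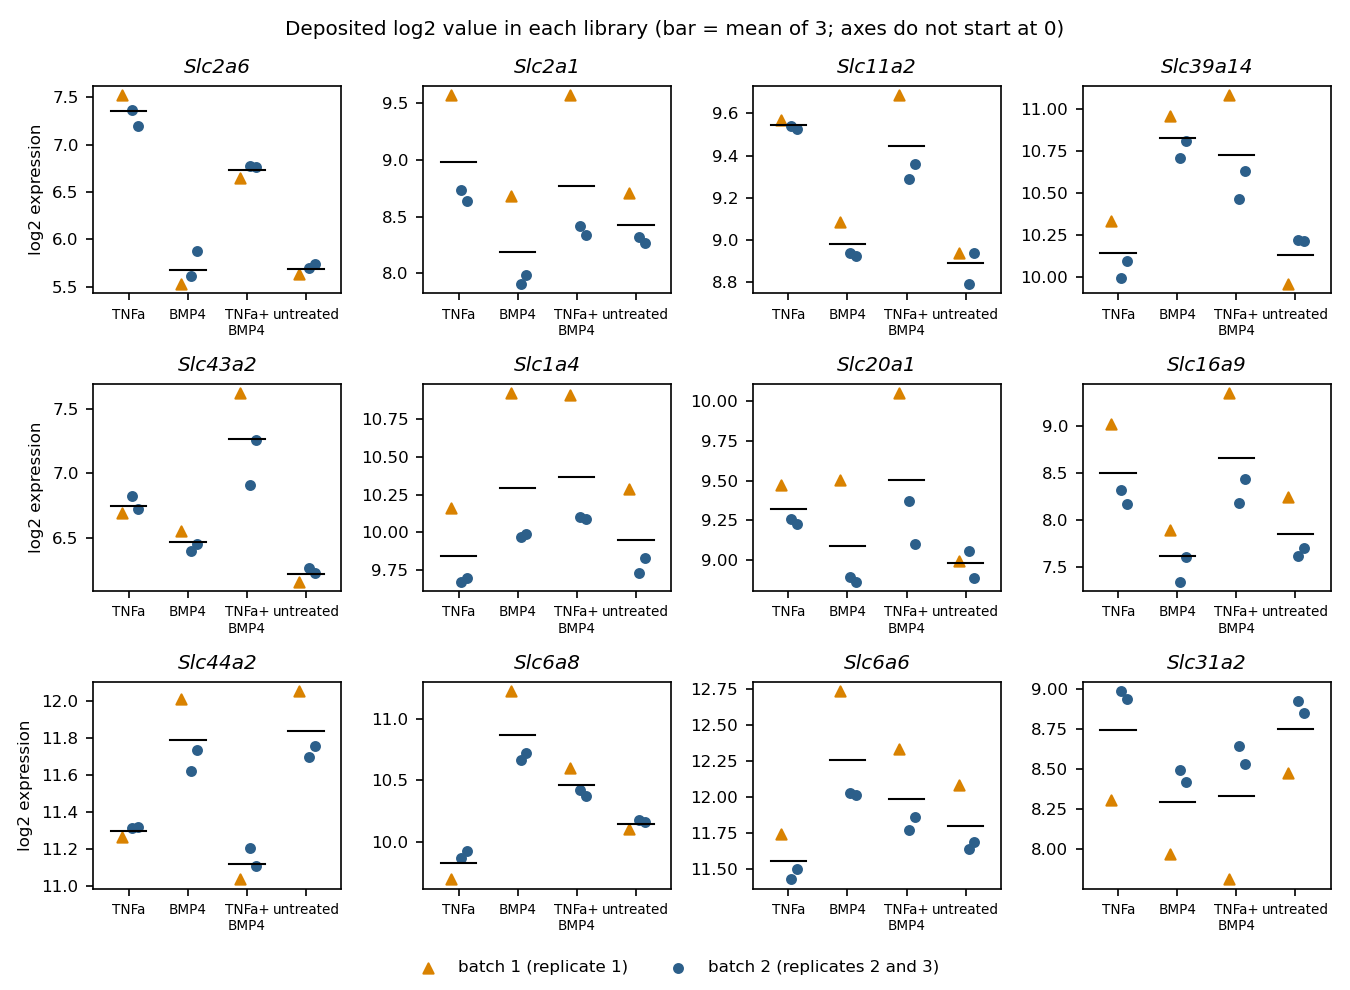
Deposited log2 expression of 12 solute carrier genes in each library (vertical axis, not starting at 0) by group, with batch 1 as triangles, batch 2 as circles and a bar at the mean of 3. Slc2a6 is highest with TNFa and intermediate with both factors, Slc39a14 is high in both groups given BMP4, and Slc6a8 is lowest with TNFa and highest with BMP4.

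The 23 metal carriers gave 3 higher and 1 lower with TNFa, 1 higher and 1 lower with BMP4, and 8 higher and 2 lower with both factors. These counts, too, were not tested against the shares of all tested genes given beside the sugar carriers. The count with BMP4 was 5 without TNFa+BMP4 replicate 1. Slc11a2 (DMT1, chr15:100392658-100423055, minus strand), which brings ferrous iron and other divalent metals into the cytosol, showed the largest TNFa response of the group. It had 9.57, 9.54 and 9.53 in TNFa libraries, 9.08, 8.94 and 8.92 in BMP4 libraries, 9.69, 9.29 and 9.36 in TNFa+BMP4 libraries and 8.94, 8.79 and 8.94 in untreated libraries. Each library given TNFa exceeded each library without it. The change was 0.66 ± 0.07 with TNFa (adjusted p = 4.31e-07), 0.09 ± 0.07 with BMP4 (not called) and 0.56 ± 0.07 with both (adjusted p = 2.81e-06), with like values in batch 1 (0.63) and batch 2 (0.67) for TNFa. Slc39a1 (ZIP1), a zinc importer of the plasma membrane, had 11.28, 10.91 and 10.95 in TNFa libraries and 10.78, 10.55 and 10.68 in untreated libraries. It was higher by 0.38 ± 0.06 with TNFa (adjusted p = 5.41e-05) and by 0.26 ± 0.06 with both factors (adjusted p = 0.00137). Slc30a7 (ZnT7), which loads zinc into the Golgi, was higher by 0.24 ± 0.05 with TNFa (adjusted p = 0.00396).

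Slc39a14 (ZIP14, chr14:70303467-70351424, minus strand) imports zinc, manganese and iron, and is known in liver as an acute-phase gene. It was the member of this family that BMP4 raised. Its values were 10.33, 9.99 and 10.09 in TNFa libraries, 10.96, 10.71 and 10.81 in BMP4 libraries, 11.08, 10.46 and 10.63 in TNFa+BMP4 libraries and 9.96, 10.22 and 10.21 in untreated libraries. All 6 libraries given BMP4 lay above all 6 without it. The change was 0.70 ± 0.10 with BMP4 (adjusted p = 6.67e-05) and 0.59 ± 0.10 with both (adjusted p = 0.000111), and adding BMP4 to TNFa gave 0.58 ± 0.10 (adjusted p = 0.000462). With both factors it was 1.12 in batch 1 and 0.33 in batch 2, and 0.39 without untreated replicate 1 (adjusted p = 0.000501). TNFa alone gave 0.01 ± 0.10, with 0.37 in batch 1 and -0.17 in batch 2, and was not called (adjusted p = 0.976). In batch 2 alone the fall with TNFa passed the test (adjusted p = 0.0402).

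Slc31a2 (CTR2), a copper carrier of endosomes and lysosomes, had 8.31, 8.98 and 8.94 in TNFa libraries, 7.97, 8.49 and 8.42 in BMP4 libraries, 7.81, 8.64 and 8.53 in TNFa+BMP4 libraries and 8.47, 8.92 and 8.85 in untreated libraries. The groups overlap across batches, and within each batch the libraries given BMP4 are the lower ones. It changed by -0.45 ± 0.08 with BMP4 (adjusted p = 0.000415) and by -0.42 ± 0.08 with both (adjusted p = 0.000267). Slc41a3, a magnesium carrier, changed by -0.34 ± 0.09 with TNFa (adjusted p = 0.0109, but 0.0692 without TNFa replicate 3 and 0.127 without untreated replicate 1) and by -0.41 ± 0.09 with both (adjusted p = 0.00159), -0.26 in batch 2 alone. The remaining rises with both factors were small and included the zinc carriers Slc39a6 (0.22), Slc39a7 (0.18) and Slc39a9 (0.15) and the magnesium carrier Slc41a2 (0.23). Each of these 4 lost its call without untreated replicate 1, where the adjusted p was 0.317 for Slc39a6, 0.165 for Slc39a7, 0.184 for Slc39a9 and 0.0746 for Slc41a2. Slc39a6, Slc39a7 and Slc39a9 also lost it without TNFa+BMP4 replicate 1, at 0.128, 0.194 and 0.128, and Slc39a7 and Slc39a9 without further single libraries. In batch 2 alone Slc39a6 gave 0.09, Slc39a7 0.08 and Slc41a2 0.15. The count of metal carriers called with both factors, 10 in the full fit, was 5 without untreated replicate 1, 6 without TNFa+BMP4 replicate 1 and 6 in batch 2 alone. Slc39a8 and Slc40a1, an importer of zinc and manganese and the iron exporter ferroportin, did not reach the level for membership.

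Of the 93 members whose RefSeq promoter (GRCm38.p6, 250 bases upstream to 50 downstream) starts at the same base as the deposited transcript, 7 held the NF-kB consensus on either strand, against 8.46% of all 32851 promoters of that length. Among the 10 of these 93 that TNFa raised, only Slc39a1 held one. When all 99 members with any promoter of their symbol were counted, which was done first, 9 held it, and 1 of the 12 raised by TNFa. The Slc39a1 stretch (chr3:90248191-90248220, plus strand) is shown for that reason, with the match in capitals. The match covers bases 10 to 19 counted from the transcript start as 1, and since it is a palindrome it matches on both strands.
Slc39a1: gggagggggtGGGAATTCCCgacgcgaggc

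Genes of metal handling outside the solute carriers were taken from a list of 14, of which 11 were tested. TNFa raised 5 of the 11 and lowered none, BMP4 raised none and lowered 1, and both factors raised 5 and lowered 1. Of all tested genes, TNFa raised 9.16% and lowered 6.32%, BMP4 raised 6.75% and lowered 5.47%, and both raised 16.8% and lowered 14.4%. The lists of genes outside the solute carriers were chosen with earlier results of these data known. Their counts were not tested against these shares. Mt2, a metallothionein that binds zinc and copper, was higher by 1.16 ± 0.11 with TNFa (adjusted p = 9.1e-08), and Mt1 by 0.41 ± 0.05 (adjusted p = 6.57e-06). Hmox1, which releases iron from heme, was higher by 0.78 ± 0.11 (adjusted p = 1.46e-05), Cp, a ferroxidase, by 0.52 ± 0.09 (adjusted p = 0.000183), and Fth1, the ferritin heavy chain, by 0.35 ± 0.05 (adjusted p = 2.92e-05). Tfrc, the transferrin receptor, was not called with TNFa (0.10 ± 0.06, adjusted p = 0.292). Steap3, an iron reductase, was the gene that BMP4 lowered, with a change of -0.27 ± 0.09 (adjusted p = 0.047).

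**Figure D4:**
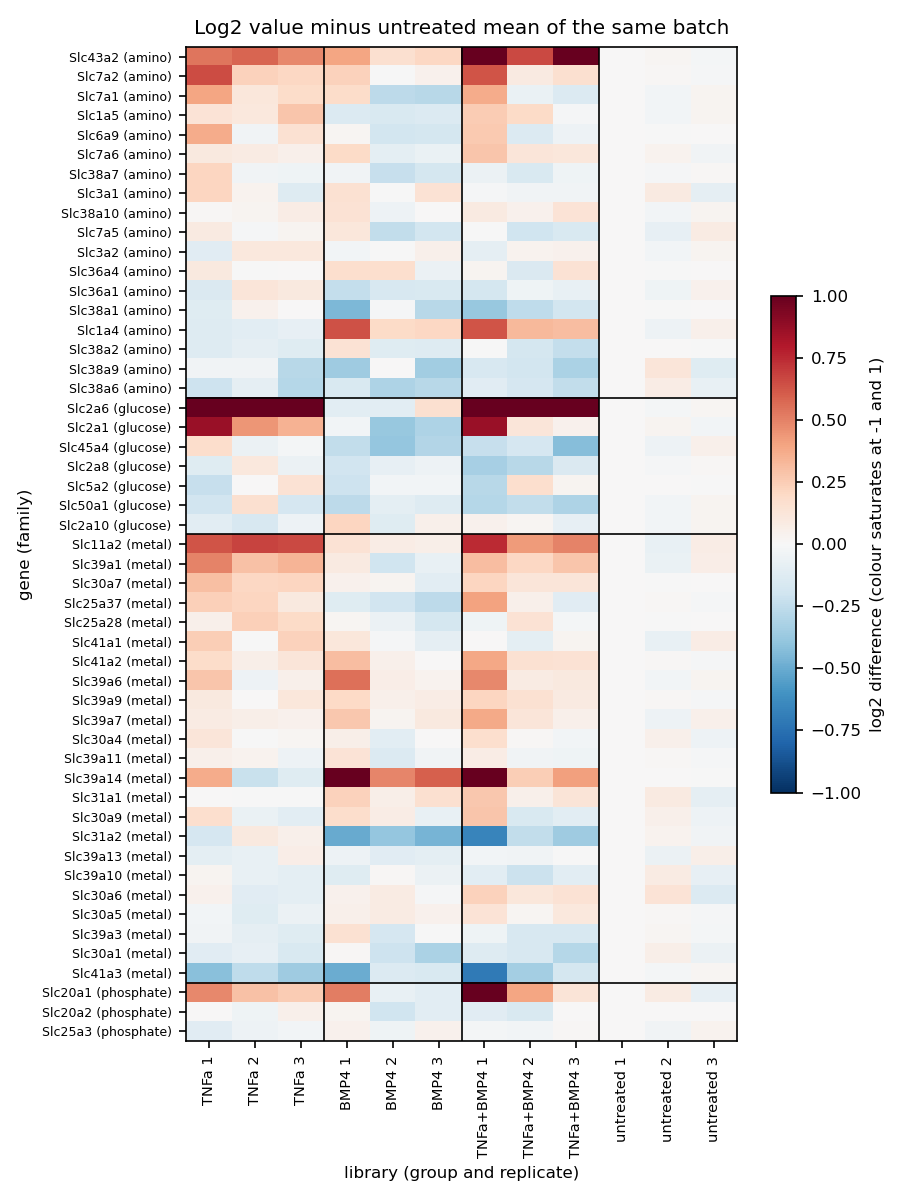
Log2 value of each amino acid, sugar, metal and phosphate carrier (rows) in each library (columns) minus the untreated mean of the same batch, in red where higher and blue where lower, with colour saturating at -1 and 1. Untreated replicate 1 is 0 by construction, since batch 1 has 1 untreated library. Slc2a6 is dark red in all 6 libraries given TNFa. Batch 1 libraries (replicate 1) tend to have the deeper colours, but each is set against only that 1 untreated library.

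The 18 amino acid carriers gave 3 higher and none lower with TNFa, 1 higher with BMP4, and 4 higher and 1 lower with both factors. The count with both factors, 5 in the full fit, was 3 without TNFa+BMP4 replicate 1 or 2 and 4 without untreated replicate 1, and the count with BMP4 was 3 in batch 2 alone, 3 without BMP4 replicate 2 and 2 without TNFa replicate 1, TNFa+BMP4 replicate 1 or untreated replicate 2. Slc43a2 (LAT4, NM_001199283, chr11:75532112-75577572, plus strand), a sodium-independent carrier of branched-chain and aromatic amino acids, had 6.70, 6.83 and 6.73 in TNFa libraries, 6.56, 6.40 and 6.45 in BMP4 libraries, 7.62, 6.91 and 7.25 in TNFa+BMP4 libraries and 6.17, 6.27 and 6.23 in untreated libraries. No 2 groups overlapped, and the libraries with both factors were the highest. It was higher by 0.53 ± 0.11 with TNFa (adjusted p = 0.00198) and by 1.04 ± 0.11 with both (adjusted p = 4.26e-07), and BMP4 alone gave 0.25 ± 0.11 (adjusted p = 0.162, not called). Adding TNFa to BMP4 raised it by 0.79 ± 0.11 (adjusted p = 2.69e-05). Adding BMP4 to TNFa gave 0.51 ± 0.11 (adjusted p = 0.00459), but 0.33 without TNFa+BMP4 replicate 1 (adjusted p = 0.0604). It was among the members with the lowest expression per kb (3.84), and the authors' deposited table lists 1.02 with TNFa and 1.81 with both.

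Slc7a2 (CAT2), which brings in arginine and lysine and supplies inducible nitric oxide synthase in macrophages, had 10.55, 10.76 and 10.75 in TNFa libraries, 10.13, 10.54 and 10.58 in BMP4 libraries, 10.52, 10.63 and 10.69 in TNFa+BMP4 libraries and 9.89, 10.55 and 10.52 in untreated libraries. The replicate 1 libraries spread the most, and the untreated one among them was the lowest of all 12. The change with TNFa was 0.36 ± 0.08 (adjusted p = 0.00146), 0.65 in batch 1 and 0.22 in batch 2, and 0.23 without untreated replicate 1 (adjusted p = 0.02). With both factors it was 0.29 ± 0.08 (adjusted p = 0.00499), a call lost without TNFa+BMP4 replicate 1 (0.0639) or untreated replicate 1 (0.17, adjusted p = 0.0742). Its relative Slc7a1 (CAT1) was higher by 0.23 ± 0.07 with TNFa (adjusted p = 0.0406). That call was lost without any TNFa replicate (0.0639, 0.094 and 0.152), without TNFa+BMP4 replicate 2 (0.052) and without untreated replicate 1, where the change was 0.10 (0.421), and batch 2 alone gave 0.15 (0.0609).

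Slc1a4 (ASCT1, chr11:20302180-20332713, minus strand), an exchanger of serine, alanine and other small neutral amino acids, followed BMP4. It had 10.16, 9.67 and 9.70 in TNFa libraries, 10.92, 9.97 and 9.99 in BMP4 libraries, 10.91, 10.10 and 10.09 in TNFa+BMP4 libraries and 10.29, 9.73 and 9.83 in untreated libraries. Batch 1 was higher throughout, and within each batch the libraries given BMP4 were above those without it. The change was 0.34 ± 0.08 with BMP4 (adjusted p = 0.00529), 0.42 ± 0.08 with both (adjusted p = 0.000284) and 0.52 ± 0.08 when BMP4 was added to TNFa (adjusted p = 0.0001). The call for BMP4 alone was lost without BMP4 replicate 1 (0.23, adjusted p = 0.0534) or untreated replicate 1 (adjusted p = 0.0592), and batch 2 alone gave 0.20 (adjusted p = 0.0253). Slc1a5 (ASCT2), the related glutamine carrier, was called in 1 comparison, higher by 0.29 ± 0.06 when TNFa was added to BMP4 (adjusted p = 0.00285). Slc38a1, a sodium-coupled glutamine carrier, changed by -0.27 ± 0.08 with both factors (adjusted p = 0.017), a call lost without TNFa+BMP4 replicate 1 (0.0501) or 2 (0.0598) or untreated replicate 1 (0.126). Slc7a6, an exchanger of cationic and large neutral amino acids, was higher by 0.17 ± 0.06 with both factors (adjusted p = 0.0383), a call lost without any of the TNFa+BMP4 replicates (0.135, 0.0757 and 0.066) or untreated replicate 1 (0.118, adjusted p = 0.223) or 3 (0.0684), and in batch 2 alone (adjusted p = 0.17).

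Slc3a2 and Slc7a5, which together form the exchanger of large neutral amino acids at the cell surface, passed in no comparison. Slc3a2 lay between 11.82 and 11.87 in TNFa libraries, 11.71 and 11.96 in BMP4 libraries, 11.75 and 11.89 in TNFa+BMP4 libraries and 11.69 and 11.98 in untreated libraries. Slc7a5 lay between 11.75 and 11.79 in TNFa libraries, 11.52 and 11.79 in BMP4 libraries, 11.56 and 11.67 in TNFa+BMP4 libraries and 11.68 and 11.84 in untreated libraries. The groups overlapped in each comparison with untreated cells except Slc7a5 with both factors, which gave -0.12 ± 0.06 (adjusted p = 0.144).

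From a list of 12 genes of the amino acid deprivation response, all tested, TNFa raised 4 and lowered none, BMP4 changed none at the threshold and both factors raised 6 and lowered 1. These counts were not tested against the shares of all tested genes given beside the metal handling list. Atf4, the transcription factor at its centre, was higher by 0.21 ± 0.07 with TNFa (adjusted p = 0.0407) and by 0.40 ± 0.07 with both (adjusted p = 0.000105). Its partners Cebpb (0.57 ± 0.15, adjusted p = 0.00993), Cebpg (0.25 ± 0.06, adjusted p = 0.00273) and Ddit3 (0.45 ± 0.07, adjusted p = 8.58e-05) were higher with TNFa. Asns, Chac1, Trib3 and Sesn2, common targets of Atf4, were not called with TNFa, with changes of 0.03, 0.09, -0.01 and 0.23. With both factors Chac1 was higher by 0.335 ± 0.08 (adjusted p = 0.00249) and Nupr1, a stress-induced chromatin protein, by 0.37 ± 0.08 (adjusted p = 0.00175), while Psat1, an enzyme of serine synthesis, changed by -0.25 ± 0.05 (adjusted p = 0.000491). Cebpb, Cebpg and Ddit3 were also called higher with both factors, and Asns, Trib3 and Sesn2 were not called.

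The 3 phosphate carriers gave no call with either factor alone and 1 with both. The count with TNFa was 1 in batch 2 alone, 1 with a minimum mean log2 of 6 and 1 without replicate 1 of TNFa, BMP4 or TNFa+BMP4, untreated replicate 2 or TNFa+BMP4 replicate 3. Slc20a1 (Pit1, NM_015747, chr2:129198773-129211612, plus strand) had 9.47, 9.26 and 9.22 in TNFa libraries, 9.50, 8.89 and 8.86 in BMP4 libraries, 10.05, 9.37 and 9.10 in TNFa+BMP4 libraries and 8.99, 9.05 and 8.89 in untreated libraries. All libraries given TNFa, with or without BMP4, were above all untreated ones, and the BMP4 libraries overlapped the untreated ones. With both factors it was higher by 0.53 ± 0.12 (adjusted p = 0.0014), by 1.06 in batch 1 and 0.26 in batch 2, and by 0.35 without untreated replicate 1 (adjusted p = 0.0229). The authors' deposited table lists an adjusted p of 0.101 for the same comparison. TNFa alone gave 0.34 ± 0.12 (adjusted p = 0.0504, just over the threshold), with 0.48 in batch 1 and 0.27 in batch 2. For TNFa alone the authors' deposited table lists an adjusted p of 0.0014. By that test Slc20a1 was called with TNFa and not with both factors. BMP4 alone gave 0.11 ± 0.12, with 0.51 in batch 1 and -0.09 in batch 2. Adding TNFa to BMP4 gave 0.42 ± 0.12 (adjusted p = 0.0146), a call lost without BMP4 replicate 2 (0.0609) or 3 (0.07) or TNFa+BMP4 replicate 1 (0.25, adjusted p = 0.176).

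Slc20a2 (Pit2) had 9.25, 8.84 and 8.93 in TNFa libraries, 9.28, 8.68 and 8.78 in BMP4 libraries, 9.13, 8.73 and 8.89 in TNFa+BMP4 libraries and 9.24, 8.88 and 8.88 in untreated libraries. Its groups overlapped, and it passed in no comparison. Slc25a3, which feeds phosphate to ATP synthesis in mitochondria, stayed between 13.04 and 13.20 in all 12 libraries. Of 8 further genes of phosphate and mineral handling, 5 were tested. TNFa raised none and lowered 2, BMP4 raised 2 and lowered none, and both factors raised 1 and lowered none. The shares of all tested genes are given beside the metal handling list, and no test was made against them. Pth1r, the receptor for parathyroid hormone, changed by -0.65 ± 0.09 with TNFa (adjusted p = 8.36e-06) and by 0.64 ± 0.09 with BMP4 (adjusted p = 2.75e-05), and was not called with both (-0.04 ± 0.09). Ank, which exports pyrophosphate precursors, had -0.27 ± 0.06 with TNFa (adjusted p = 0.00413), 0.20 ± 0.06 with BMP4 (adjusted p = 0.0391) and 0.03 ± 0.06 with both (not called). Fgfr1, a receptor for fibroblast growth factors, was the gene called with both factors, higher by 0.125 ± 0.05 (adjusted p = 0.0475). Xpr1, the phosphate exporter, was not called with any treatment.

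Genes of glucose use came from a list of 15, all tested. TNFa raised 1 and lowered 1, BMP4 raised 2 and lowered 3, and both factors raised 3 and lowered 2. As for the other lists, these counts were not tested against the shares of all tested genes given beside metal handling. Txnip, an arrestin-like protein known to restrain glucose uptake, changed by -0.36 ± 0.05 with TNFa (adjusted p = 3.53e-05), by -0.38 ± 0.05 with BMP4 (adjusted p = 4.12e-05) and by -0.72 ± 0.05 with both (adjusted p = 1.29e-09). Hk2, a hexokinase, was higher by 0.56 ± 0.13 with BMP4 (adjusted p = 0.00835) and by 1.10 ± 0.13 with both (adjusted p = 1.78e-06), while TNFa alone gave 0.18 ± 0.13 (adjusted p = 0.438). Hk1 was higher by 0.25 ± 0.05 with TNFa (adjusted p = 0.00241). With both factors Ldha was higher by 0.22 ± 0.05 (adjusted p = 0.00126) and Pfkp by 0.24 ± 0.06 (adjusted p = 0.00359). Pkm was higher by 0.17 ± 0.05 with BMP4 (adjusted p = 0.039). Arrdc4 changed by -0.25 ± 0.07 with BMP4 (adjusted p = 0.015) and by -0.32 ± 0.07 with both (adjusted p = 0.000692). Pfkfb3 changed by -0.35 ± 0.11 with BMP4 (adjusted p = 0.0397). Gapdh, Aldoa, Eno1 and Pgk1 were among those not called against untreated cells in any of the 3 treatments.

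The 17 ion exchangers and cotransporters gave 3 higher and 3 lower with TNFa, none higher and 1 lower with BMP4, and 3 higher and 5 lower with both. The count with both, 8 in the full fit, was 5 in batch 2 alone, and the count with BMP4 was 0 without untreated replicate 1 or BMP4 replicate 1 or 3. Slc12a2 (NKCC1), which brings sodium, potassium and chloride into the cell, had 10.97, 10.47 and 10.37 in TNFa libraries, 10.11, 9.86 and 9.93 in BMP4 libraries, 10.42, 10.05 and 10.20 in TNFa+BMP4 libraries and 10.06, 10.03 and 9.90 in untreated libraries. TNFa libraries were above all untreated ones and within each batch above those with both factors. It was higher by 0.61 ± 0.08 with TNFa (adjusted p = 3.57e-06), and adding BMP4 to TNFa changed it by -0.38 ± 0.08 (adjusted p = 0.00166). With both factors the change was 0.23 ± 0.08 (adjusted p = 0.0258), a call lost without TNFa+BMP4 replicate 1 (0.067) or 3 (0.117) or untreated replicate 1 (0.14, adjusted p = 0.217) or 3 (0.054).

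Slc12a7 (KCC4), which moves potassium and chloride out of the cell, changed by -0.36 ± 0.09 with both (adjusted p = 0.00313), by -0.22 without TNFa+BMP4 replicate 1 (adjusted p = 0.0493) and by -0.20 in batch 2 alone (adjusted p = 0.0676). Slc12a9, a further member of the family, changed by -0.45 ± 0.08 with both (adjusted p = 0.000277) and Slc24a3, an exchanger of sodium for calcium and potassium, by -0.28 ± 0.07 with TNFa (adjusted p = 0.00613, but 0.0575 without TNFa replicate 3) and -0.42 ± 0.07 with both (adjusted p = 8.71e-05). Slc4a7, a regulator of pH which brings in bicarbonate with sodium, was higher by 0.46 ± 0.08 with TNFa (adjusted p = 0.000239) and 0.55 ± 0.08 with both (adjusted p = 1.69e-05).

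Carriers of osmolytes, creatine, choline and vitamins numbered 10. TNFa raised none and lowered 3, BMP4 raised 2 and lowered 1, and both factors raised 2 and lowered 2. The count with TNFa was 1 without TNFa replicate 1 or untreated replicate 3, 1 with no filter on low values and 5 without BMP4 replicate 1. The count with both factors was 2 without TNFa+BMP4 replicate 1 or untreated replicate 1, and 2 with no filter on low values. Slc6a8 (chrX:73673133-73682500), the creatine carrier, had 9.69, 9.87 and 9.92 in TNFa libraries, 11.23, 10.66 and 10.72 in BMP4 libraries, 10.60, 10.43 and 10.37 in TNFa+BMP4 libraries and 10.10, 10.18 and 10.16 in untreated libraries. No 2 groups overlapped, and from low to high they ran TNFa, untreated, both factors, BMP4. The change was -0.32 ± 0.10 with TNFa (adjusted p = 0.026), 0.73 ± 0.10 with BMP4 (adjusted p = 2.54e-05) and 0.32 ± 0.10 with both (adjusted p = 0.0159). Adding BMP4 to TNFa gave 0.64 ± 0.10 (adjusted p = 0.000122), and adding TNFa to BMP4 gave -0.41 ± 0.10 (adjusted p = 0.00484), or -0.22 without BMP4 replicate 1 (0.0484). The call with TNFa was lost without TNFa replicate 1 (-0.18, adjusted p = 0.257) and without untreated replicate 2 (0.108) or 3 (0.0913). The call with both factors was lost without TNFa+BMP4 replicate 1 (0.068) or untreated replicate 1 (0.118).

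Slc6a6, the taurine carrier, showed the same order of groups within each batch. It had 11.74, 11.43 and 11.50 in TNFa libraries, 12.74, 12.03 and 12.02 in BMP4 libraries, 12.34, 11.77 and 11.86 in TNFa+BMP4 libraries and 12.08, 11.64 and 11.69 in untreated libraries. Batch 1 was higher throughout, so compared groups overlapped across batches, apart from both factors against TNFa. The change was 0.46 ± 0.06 with BMP4 (adjusted p = 5.05e-05) and -0.24 ± 0.06 with TNFa (adjusted p = 0.0115), and adding BMP4 to TNFa gave 0.43 ± 0.06 (adjusted p = 0.000115). The TNFa call was lost without TNFa replicate 1 (-0.15, adjusted p = 0.148) or untreated replicate 3 (0.0531). The comparisons of TNFa and of BMP4 with untreated cells share the untreated libraries, whereas the 2 effects measured in the presence of the other factor share the TNFa+BMP4 libraries.

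Slc44a2 (chr9:21320719-21355028), a choline carrier-like protein, had 11.26, 11.31 and 11.32 in TNFa libraries, 12.01, 11.62 and 11.73 in BMP4 libraries, 11.03, 11.20 and 11.11 in TNFa+BMP4 libraries and 12.05, 11.70 and 11.76 in untreated libraries. The 6 libraries given TNFa were all below the 6 without it. It changed by -0.54 ± 0.08 with TNFa (adjusted p = 2.88e-05) and -0.72 ± 0.08 with both (adjusted p = 3.83e-07), and BMP4 alone gave -0.05 ± 0.08 (not called). Slc5a3, the carrier of myo-inositol, changed by -0.34 ± 0.08 with both factors (adjusted p = 0.00193). Slc19a2, a thiamine carrier, changed by -0.30 ± 0.08 with BMP4 (adjusted p = 0.0217), a call lost without BMP4 replicate 1 (0.158), untreated replicate 1 (-0.20, adjusted p = 0.203) or untreated replicate 3 (0.0581), and the change was -0.15 in batch 2 alone.

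The 28 mitochondrial carriers, Slc25a3 and the iron carriers of mitochondria aside, gave 3 higher and 3 lower with TNFa, 1 higher and 2 lower with BMP4, and 2 higher and 3 lower with both factors. The count with TNFa, 6 in the full fit, was 2 without untreated replicate 1 or TNFa replicate 2, 3 without TNFa replicate 3 and 3 by the authors' deposited test. Slc25a32 (chr15:39094191-39112716), which carries folate or flavin adenine dinucleotide into mitochondria, had 8.04, 7.88 and 7.91 in TNFa libraries, 8.49, 8.33 and 8.29 in BMP4 libraries, 8.49, 8.45 and 8.24 in TNFa+BMP4 libraries and 7.94, 7.84 and 7.73 in untreated libraries. All 6 libraries given BMP4 were above the 6 without it. The change was 0.54 ± 0.07 with BMP4 (adjusted p = 3.09e-05) and 0.56 ± 0.07 with both (adjusted p = 4.76e-06), with 0.56 and 0.53 in batches 1 and 2 for BMP4. Slc25a27, an uncoupling protein relative, had 7.09, 7.12 and 7.14 in TNFa libraries, 6.98, 6.90 and 6.99 in BMP4 libraries, 6.68, 7.01 and 6.98 in TNFa+BMP4 libraries and 7.54, 7.42 and 7.34 in untreated libraries. Every treated library was below every untreated one. It changed by -0.48 ± 0.09 with BMP4 (adjusted p = 0.000936), by -0.55 ± 0.09 with both (adjusted p = 7.33e-05) and by -0.32 ± 0.09 with TNFa (adjusted p = 0.0157). The TNFa call was lost without TNFa replicate 1 (0.0529) or 2 (0.0569) or untreated replicate 1 (0.154). Slc25a24 and Slc25a25, calcium-regulated carriers of ATP-magnesium and phosphate, moved in opposite directions with TNFa, with -0.21 ± 0.05 (adjusted p = 0.00868) and 0.40 ± 0.08 (adjusted p = 0.00142).

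Slc27a3, an acyl-CoA synthetase of the fatty acid transport family (chr3:90385233-90389938), had 8.53, 8.54 and 8.56 in TNFa libraries, 8.73, 8.61 and 8.66 in BMP4 libraries, 8.25, 8.29 and 8.37 in TNFa+BMP4 libraries and 9.25, 8.79 and 8.96 in untreated libraries. The untreated libraries were the highest and those with both factors the lowest. It changed by -0.46 ± 0.08 with TNFa (adjusted p = 0.000397), by -0.34 ± 0.08 with BMP4 (adjusted p = 0.0104) and by -0.70 ± 0.08 with both (adjusted p = 1.38e-06). The BMP4 call was lost without untreated replicate 1 (-0.21, adjusted p = 0.129). Slc29a1 (ENT1), a nucleoside carrier, was higher by 0.28 ± 0.06 with TNFa (adjusted p = 0.000778) and 0.38 ± 0.06 with both (adjusted p = 1.99e-05), and Slc48a1, a heme carrier of lysosomes, by 0.32 ± 0.06 with TNFa (adjusted p = 0.000479).

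Slc16a9, a monocarboxylate family member linked to carnitine efflux, had 9.02, 8.32 and 8.17 in TNFa libraries, 7.90, 7.35 and 7.61 in BMP4 libraries, 9.35, 8.18 and 8.44 in TNFa+BMP4 libraries and 8.25, 7.62 and 7.70 in untreated libraries. Within each batch every library given TNFa was above those without it. It was higher by 0.65 ± 0.11 with TNFa (adjusted p = 0.000146) and 0.80 ± 0.11 with both (adjusted p = 6.6e-06), and adding TNFa to BMP4 gave 1.04 ± 0.11 (adjusted p = 3.28e-07). Of its exon bases, 25.1% are shared with Gm9877 on the opposite strand, and since the strand used in counting is not given in the sources used here, reads of the pair cannot be told apart. None of the 5 nucleotide sugar carriers, which supply the Golgi, passed in a comparison with untreated cells, with 0, 1 and 0 at an unadjusted p below 0.05 by limma for TNFa, BMP4 and both. At that cut there were 3124, 3033 and 4876 of all 11765 tested genes. Slc35a5 was called lower when TNFa was added to BMP4 (-0.23). That call was lost without BMP4 replicate 1 or 2 or TNFa+BMP4 replicate 2 or 3.

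The effect of each factor was also set beside its effect in the presence of the other, and each such pair of effects shares no library. Across the 130 members the TNFa effect without and with BMP4 had a Pearson r of 0.864, against 0.885 across all tested genes, and the BMP4 effect without and with TNFa had 0.76, against 0.788. These describe genes, which share libraries and are not replicates. The interaction subtracts the effect of TNFa seen in BMP4-free cells (TNFa minus untreated) from that seen beside BMP4 (TNFa+BMP4 minus BMP4). It was called by limma in 0 of 130 members, and in 0.017% of all tested genes, 0.0085% higher and 0.0085% lower. At an unadjusted limma p below 0.05 there were 5 of 130 members and 560 of 11765 tested genes, shares not tested against each other. The 5 members were Slc2a6 at -0.61 ± 0.14 (limma adjusted p = 0.283), Slc12a2 at -0.35 ± 0.11 (adjusted p = 0.716), Slc16a9 at 0.39 ± 0.15 (adjusted p = 0.928), Slc38a6 at 0.26 ± 0.12 (adjusted p = 0.993) and Slc25a13 at -0.24 ± 0.11 (adjusted p = 0.993). The Slc2a6 difference had the same sign in both batches, with -0.77 and -0.54, but did not pass after adjustment.

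**Figure D5:**
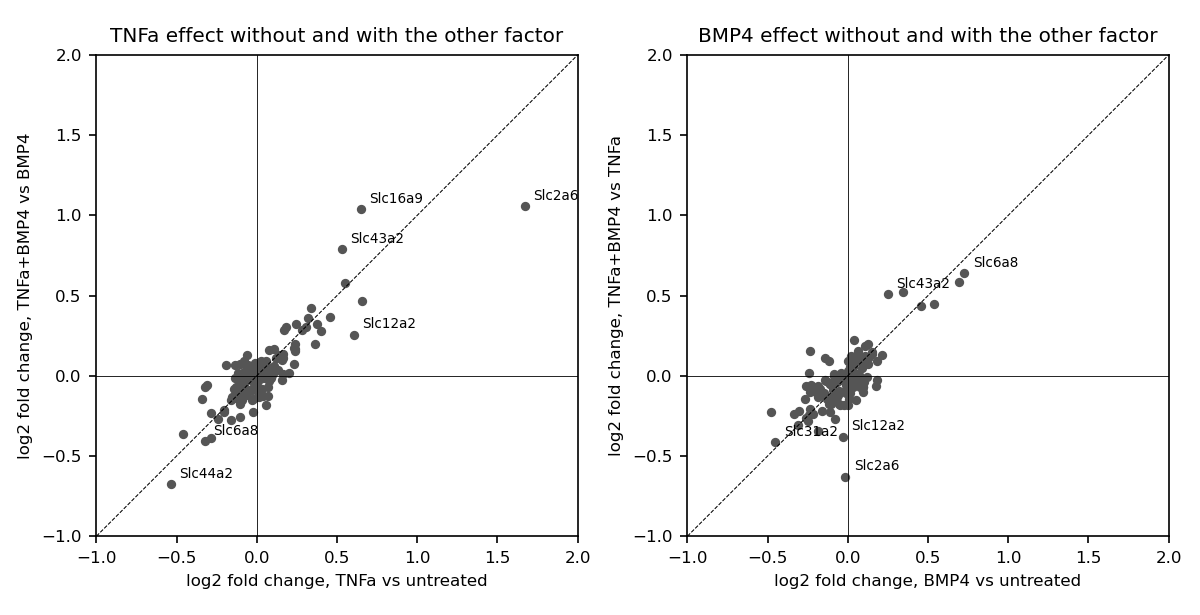
Log2 fold change of each of the 130 solute carrier genes for TNFa (left) and BMP4 (right), without the other factor on the horizontal axis and with it on the vertical axis, and a dashed line of equality. Slc2a6 (1.67 without and 1.06 with BMP4) lies below the line for TNFa and Slc16a9 (0.65 and 1.04) above it.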

How the data were processed

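Polyadenylated RNA of 12 MC3T3-E1 libraries was sequenced as paired-end 150-base reads, per the labels' protocols. Tools listed in the submitters' processing notes are HISAT2, Trim Galore and HOMER, without versions, and the build is mm10. HOMER made raw read counts over the exons of each gene's chosen transcript and compared groups with batch in the model, as recorded in the file headers. The 12 library columns are log2 values deposited by the authors, and the transformation that made them is not named. Fold changes, also log2, and p-values of the authors' deposited table were used as an alternative test and where named.

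Each comparison was fitted with limma 3.58.1 in R 4.3.3 on the deposited log2 values of all 12 libraries, with terms for group and batch, a mean-variance trend, 7 residual degrees of freedom and Benjamini-Hochberg adjustment over the 11765 genes with a mean log2 of at least 4 (all p-values two-sided). A gene is called at an adjusted p below 0.05. Values are log2 fold changes ± SE with n = 3 per group unless another measure is named. The number of libraries limits precision: with 3 libraries per group, small changes can be missed. Within batch 2, replicate differences correlated between groups by 0.02 to 0.164 over 6 pairs of groups, so replicate numbers were not taken as pairs.

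Families and partner gene lists were set by family number and known function, and the members and lists were chosen with earlier results of these data known. Genes were named by rule: per comparison, among called members moving the same way in batch 1 and batch 2, the top 6 rises and the top 6 falls; in each of the 4 main families, the 3 largest changes of either sign, called or not; and 11 genes in every case. Other called members were named to fill out their families, after their values were seen. Some called members are not reported here by name, though they stay in all counts. Exon overlap came from GENCODE M21, with 7 members sharing at least 20% of exon bases with another gene. Promoters from RefSeq matched 99 members by symbol. The restriction to the 93 with the same start was chosen after seeing the data. Alternatives were 8 other fits, the authors' test and 12 fits without 1 library each.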

Additional observations from a re-analysis of the deposited data

How the results depend on the processing

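With no batch term the number of called members was 4 with TNFa, 3 with BMP4, 11 with both factors against untreated cells, 1 for both against TNFa and 4 for both against BMP4, in place of 28, 12, 44, 15 and 28, and 23 of the 127 called changes were kept. Under the other alternatives each of these counts stayed within 1.5 times its value. Leaving out 1 library gave 21 to 32 with TNFa, 9 to 16 with BMP4, 30 to 47 with both, 10 to 20 for both against TNFa and 20 to 30 for both against BMP4, and the interaction stayed at 0 in every fit. Of the 127 called changes, all kept their direction under every alternative. Batch 2 alone kept 102, no low-value filter 102, no variance trend 114, quantile normalization 117, robust variances 122, a minimum mean log2 of 6 all 127, and the authors' deposited test 98. Fits without 1 library kept 98 (untreated replicate 1) to 120 (BMP4 replicate 2). A replicate block in place of batch kept 123, with 27, 12, 44, 14 and 28 members called, and the replicate numbers were not found to pair the samples. Among family counts against untreated cells that moved by over 1.5 times, metal carriers with both factors numbered 6 with no variance trend, and amino acid carriers with BMP4 numbered 3 with quantile normalization and 2 with no variance trend. By the authors' deposited test 3 amino acid and 2 sugar carriers were called with both factors, and 1 phosphate carrier with TNFa and none with both. Calls lost with no low-value filter, no variance trend or robust variances include Slc6a8 with TNFa (adjusted p = 0.109, 0.0668 and 0.137), and the cause was not tested. Of the 14 uncalled changes of members that the text prints, 4 changed sign; other uncalled changes were not followed. Slc2a6 with BMP4 was 0.029 in batch 2 alone, 0.025 with quantile normalization and -0.116 to 0.061 without 1 library. Slc39a14 with TNFa was -0.173 in batch 2 alone, -0.022 with quantile normalization and -0.191 to 0.091 without 1 library. Slc20a1 with BMP4 was -0.092 in batch 2 alone and -0.069 to 0.224 without 1 library, and Slc44a2 with BMP4 -0.14 to 0.045 without 1 library. Quantile normalization moved the median of all tested genes by less than 0.1 in each comparison. The deposited scale shrinks changes of low members, so their sizes may be understated. Whether their calls are less certain was not tested.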

Other observations

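Slc15a3, a lysosomal peptide and histidine carrier known from macrophages, stood at a mean log2 of 4.44 and so was tested but is no member. It was not called with TNFa (0.11 ± 0.08, limma adjusted p = 0.438) or in any other comparison. Slc39a8, a zinc and manganese importer, and Slc40a1, the iron exporter ferroportin, had mean log2 values of 0.73 and 1.57 and were not tested.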
